A study of Mus musculus with 5 samples.

Results

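Of the formins, which carry an actin-nucleating formin homology domain, 10 genes chosen by symbol were described in isolated brain microvascular fragments: *Fmn1*, *Fmn2*, *Fmnl1*, *Fmnl2*, *Fmnl3*, *Daam1*, *Daam2*, *Inf2*, *Fhod1* and *Fhod3*. Each symbol matched 1 Ensembl gene in the annotation of the NCBIM37 mouse genome, so that 10 of 34615 symbols in the deposited expression values were used, and all 10 were among the 16286 symbols with a mean of at least 1 FPKM (fragments per kilobase of transcript, divided by library size). The set was chosen because *Fmn1* differed between the genotypes in these same mice, so its difference is given here as a description, without a p-value.

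RNA was sequenced from male mice of C57BL6 background, aged 26 to 38 weeks, comprising 3 wild-type (WT) littermates and 2 heterozygous Ins2-AKITA mice, with 1 library per mouse. Ins2-AKITA is a germline mutation of the insulin gene *Ins2* that misfolds proinsulin in pancreatic beta cells and makes male mice hyperglycemic, and blood glucose of the sequenced mice was not analysed here. Fragments were pulled down with magnetic beads against PECAM1, an endothelial surface protein, and they also carry pericytes, smooth muscle and pieces of astrocyte end-feet. RNA of neuron, oligodendrocyte and choroid plexus markers was present as well, so formin levels are not those of the vessel wall alone. In such bulk RNA, fewer cells of a type and less RNA per cell cannot be told apart.

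Formins are large proteins that start and lengthen unbranched actin filaments. A pair of formin homology 2 domains holds the growing end of the filament, while the neighbouring formin homology 1 domain delivers actin bound to profilin. Many formins are held closed until an activating signal opens them, and the filaments they build serve stress fibres, filopodia, cell junctions and cell division. In vessels, formin-built actin bears on endothelial shape, on junctions and on the contractile apparatus of mural cells.

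Library size, as estimated from the spacing of low FPKM values, lay between 1122000 and 2839000 fragments, with WT replicate 3 the deepest. Genes of small and ribosomal RNAs made up 96.7%, 96.6% and 58.01% of all FPKM in WT, against 89.6% and 40.6% in Ins2-AKITA, and this share enters any scale set by the total. *Ins2* itself was listed at 0 in 4 mice and at 1.51 FPKM in WT replicate 3, and since the mutation is a base change this gives no check of genotype. With the longest coding transcript of each gene as its length, all 10 formins lay above the value of 3 fragments in every mouse. This floor covers counting error only. It does not hold for fragments of a much shorter transcript, such as the 192 nt one of *Fmn1*.

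*Fmn1* encodes formin 1, the product of the limb deformity locus, which binds alpha-catenin at adherens junctions and takes part in limb and kidney development. The gene (ENSMUSG00000044042) covers 389 kb of the plus strand of chromosome 2, at chr2:113167893-113556924, and 7 of its 12 annotated transcripts are protein-coding. They start at several sites, and the 250 bases before the first start of the gene and before its last start of a long coding transcript are shown, since a deposited value per gene does not say which start was used. The same window is shown for *Fmn2*, the closest relative, whose level did not differ between the genotypes by more than its spread. Sequences are from NCBIM37, plus strand, 5′ to 3′, and capitals mark CCAAT and GGGCGG on either strand, the core letters of the CCAAT box and of the GC box.
Fmn1, first start, chr2:113167643-113167892: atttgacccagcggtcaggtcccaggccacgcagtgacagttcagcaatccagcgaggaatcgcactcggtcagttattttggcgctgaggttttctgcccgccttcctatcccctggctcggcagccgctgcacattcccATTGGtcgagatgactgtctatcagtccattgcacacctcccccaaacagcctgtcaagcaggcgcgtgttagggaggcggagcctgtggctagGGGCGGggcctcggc
Fmn1, internal start, chr2:113280971-113281220: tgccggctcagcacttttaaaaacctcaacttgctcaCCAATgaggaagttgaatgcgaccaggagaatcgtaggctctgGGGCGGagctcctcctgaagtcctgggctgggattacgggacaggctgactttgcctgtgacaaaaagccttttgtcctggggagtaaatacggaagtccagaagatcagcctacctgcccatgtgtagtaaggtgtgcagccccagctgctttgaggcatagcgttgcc
Fmn2, first start, chr1:176431706-176431955: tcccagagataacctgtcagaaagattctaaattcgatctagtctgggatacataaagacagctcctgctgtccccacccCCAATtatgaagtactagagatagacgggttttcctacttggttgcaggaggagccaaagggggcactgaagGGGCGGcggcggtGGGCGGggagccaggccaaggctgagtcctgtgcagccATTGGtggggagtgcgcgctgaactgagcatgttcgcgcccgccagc

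Both *Fmn1* windows held 1 CCAAT match and 1 GGGCGG match, which do not overlap, and the *Fmn2* window held 2 of each. Among the 10 formins, a GGGCGG match was present before the first start of every gene, against 53.8% of the 13920 protein-coding genes tested, and a CCAAT match before *Fmn1*, *Fmn2* and *Fmnl3*, against 34.7%. None of the 10 windows before first starts held TATAAA (6.81% of genes) or the CArG box bound by serum response factor (1.11% of genes). These are matches of letters and not sites of binding.

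*Fmn1* was listed at 34.8, 25.9 and 36.0 FPKM in the WT mice, against 103 and 107 FPKM in the Ins2-AKITA mice. Both Ins2-AKITA mice lay far above every WT mouse and close to each other. The means were 32.2 ± 5.52 FPKM (SD, n = 3) in WT and 105 ± 2.91 FPKM (SD, n = 2) in Ins2-AKITA, a 3.27-fold ratio and a difference of 1.69 on the log2(FPKM + 1) scale. Over all 16286 symbols, 0.743% had a log2 difference at least that high. Since *Fmn1* was picked for this difference, that share describes the choice and is not a test.

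The level of *Fmn1* can also be placed within each library, which needs no scaling between mice. *Fmn1* ranked 2692, 3595 and 2386 among 13920 protein-coding genes in the WT mice, against 577 and 612 in the Ins2-AKITA mice. It took 12.4%, 8.74% and 12.3% of the summed FPKM of the 10 formins in the WT mice, against 28.02% and 26.8% in the Ins2-AKITA mice. The ratio of *Fmn1* to *Fmn2* was 1.14, 0.688 and 0.917 in WT, against 2.98 and 2.70 in Ins2-AKITA. These restate the *Fmn1* values that chose the set and add no support to them.

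The summed FPKM of the other 9 formins was 246, 270.3 and 258 in WT, against 265 and 293 in Ins2-AKITA, so that the groups overlapped once *Fmn1* was left out.

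**Figure D1:**
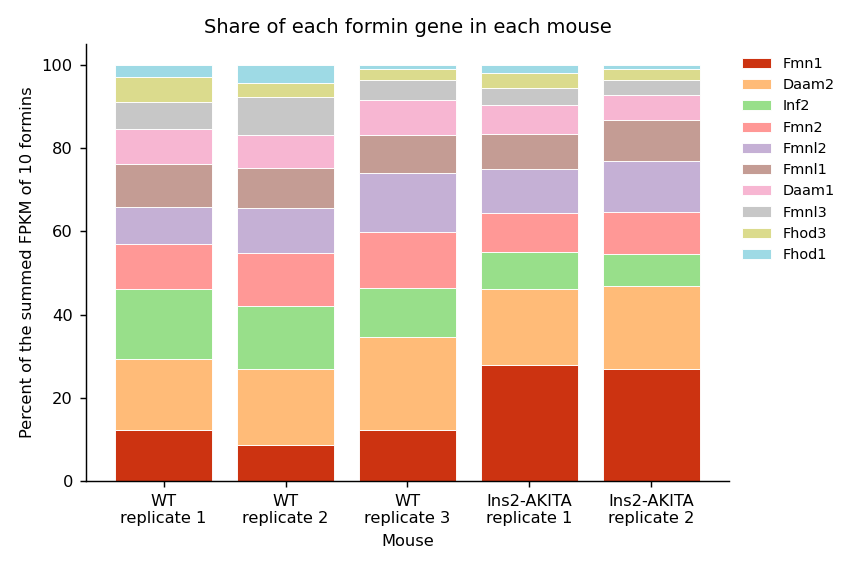
Stacked bars of the share of each formin in the summed FPKM of the 10 formins (percent, y axis) in each of the 5 mice (x axis). *Fmn1* takes 8.74% to 12.4% in the WT mice, against 26.8% to 28.02% in the Ins2-AKITA mice.

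If all *Fmn1* fragments came from its longest coding transcript, the values would stand for 463, 391 and 1186 fragments in WT and 1345 and 1603 fragments in Ins2-AKITA. Annotated *Fmn1* transcripts run from 192 to 11817 nt. A deposited gene value sums its transcripts and cannot be split again, so a shift between them and a change in the number of molecules cannot be told apart. *Fmn1* was the only formin of the 10 with a transcript shorter than 225 nt, the largest length that had to be subtracted to turn FPKM back into whole fragments. Of 241 protein-coding genes with so short a transcript, 12.4% had a log2 difference of at least 1 in size, against 4.28% of the other 13679. The part of short transcripts in the *Fmn1* values was not tested.

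The neighbours of *Fmn1* with more than low levels were *Ryr3*, a calcium release channel, and *Scg5*, a chaperone of neuroendocrine cells. *Scg5*, 59.6 kb after it, was at 67.9, 60.3 and 49.0 FPKM in WT, against 63.3 and 63.5 in Ins2-AKITA, and *Ryr3*, 111 kb before it, at 27.5, 29.1 and 17.2 in WT, against 21.3 and 14.9 in Ins2-AKITA. Neither neighbour separated the genotypes (limma, log2 difference 0.11, adjusted p = 0.943, and -0.41, adjusted p = 0.897). *Grem1*, an antagonist of bone morphogenetic proteins 29.4 kb after *Fmn1*, stayed under 1 FPKM in every mouse, and *Tmco5b* and *Gm17411* were listed at 0 throughout. *Arhgap11a* was at 0.606, 0.716 and 0.907 FPKM in WT, against 1.26 and 1.64 in Ins2-AKITA, low values whose difference missed the threshold (0.49, adjusted p = 0.902). Of 6 genes that overlap *Fmn1*, 4 lie on the opposite strand. The kit keeps strand but the strand setting of the counting is not given in the sources used here.

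**Figure D2:**
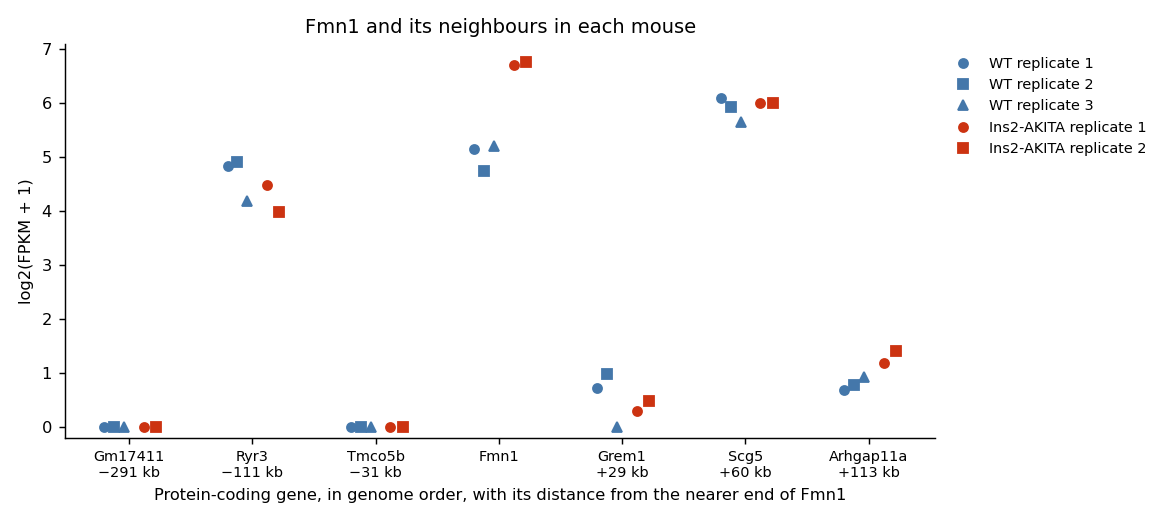
Expression of *Fmn1* and the 3 nearest protein-coding genes on each side in the 5 mice, as log2(FPKM + 1), with the distance to *Fmn1* in kb. *Gm17411* lies inside the span of *Ryr3*. In *Fmn1* both Ins2-AKITA points lie well above the WT points, while *Ryr3* and *Scg5* overlap between the genotypes.

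None of the other 9 formins passed an adjusted p of 0.05 (limma with Benjamini-Hochberg adjustment over all 16286 symbols, smallest 0.896), and 0 had an unadjusted p under 0.05. Over all symbols 4 passed, 0.0246%, all lower in Ins2-AKITA, and 4.46% had an unadjusted p under 0.05. Of the 10 formins, 3 had both Ins2-AKITA mice above every WT mouse (*Fmn1*, *Fmnl1* and *Daam2*), against 9.24% of all symbols, and 1 had both below (*Inf2*), against 10.3%. A log2 difference of at least 1 in size was present in 1 of the 10, *Fmn1*, against 7.95% of all symbols. The choice of *Fmn1* used this contrast, so nothing is read from the counts that include it. The median log2 difference was 0.06 over the 9 and -0.03 over all symbols. With 3 and 2 mice, the 95% intervals given for single genes show which differences remain possible.

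*Fmn2*, known for positioning the meiotic spindle and expressed in the nervous system, was at 30.5, 37.6 and 39.3 FPKM in WT, against 34.7 and 39.8 in Ins2-AKITA. The groups overlapped, and the log2 difference was 0.06 with an interval from -0.43 to 0.55 (adjusted p = 0.969). *Fmn2* and *Fmn1* had nearly the same mean in WT, 35.8 ± 4.65 against 32.2 ± 5.52 FPKM (SD, n = 3), with overlapping mice.

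The formin-like genes act in cell protrusions and filopodia. *Fmnl1*, best known from leukocytes, was at 29.0, 28.6 and 26.8 FPKM in WT, against 30.5 and 39.2 in Ins2-AKITA. Both Ins2-AKITA mice were higher, the first of them by little, and the log2 difference was 0.29 (interval -0.19 to 0.77, adjusted p = 0.896). *Fmnl2*, a builder of lamellipodia, was at 25.3, 31.5 and 41.7 in WT, against 39.2 and 49.7 in Ins2-AKITA, groups that overlapped through WT replicate 3 (0.45, interval -0.19 to 1.08, adjusted p = 0.896). *Fmnl3*, which is active in angiogenic endothelium, was at 18.1, 27.1 and 13.97 in WT, against 15.6 and 13.9 in Ins2-AKITA. WT replicate 2 stood highest, and the difference was -0.35 (interval -1.09 to 0.40, adjusted p = 0.902).

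The *Daam* genes link Dishevelled, a Wnt pathway protein, to the actin cytoskeleton. *Daam1* was the steadiest formin, at 23.4, 23.5 and 24.8 FPKM in WT, against 25.7 and 24.1 in Ins2-AKITA. Its highest mouse was 1.10-fold its lowest, and the log2 difference was 0.05 (interval -0.39 to 0.50, adjusted p = 0.969). *Daam2*, which in the brain is expressed by glia, was at 47.8, 54.0 and 66.0 in WT, against 66.8 and 80.0 in Ins2-AKITA. The lower Ins2-AKITA mouse barely exceeded WT replicate 3, and the difference was 0.39 (interval -0.12 to 0.91, adjusted p = 0.896).

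*Inf2*, which can also sever filaments and acts at the endoplasmic reticulum and mitochondria, was at 47.0, 45.1 and 34.3 FPKM in WT, against 32.9 and 31.2 in Ins2-AKITA. It was the only formin with both Ins2-AKITA mice below every WT mouse, by little against WT replicate 3, and its log2 difference was -0.37 (interval -0.88 to 0.14, adjusted p = 0.896). *Fhod1*, a stress fibre formin, was at 8.41, 13.2 and 2.90 in WT, against 7.66 and 4.14 in Ins2-AKITA. It spread most among the 10, 4.57-fold from lowest to highest mouse (-0.27, interval -1.69 to 1.15, adjusted p = 0.956). *Fhod3*, a sarcomere formin of heart muscle, was at 16.8, 9.66 and 7.94 in WT, against 12.6 and 10.8 in Ins2-AKITA (0.09, interval -0.75 to 0.92, adjusted p = 0.976), again with overlapping groups.

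TPM, which rescales FPKM to the same total in every mouse, moved the median of all symbols from -0.03 to 1.07, so the 3 negative formins, at 1.06 for *Fmnl3*, 1.19 for *Inf2* and 0.83 for *Fhod1*, are better read against that median. Relative to the median, *Fhod1* was at -0.24 as FPKM and -0.23 as TPM, *Fmnl3* at -0.31 and -0.0087, and *Inf2* at -0.34 and 0.12. *Fmn1* stood 1.73 above the median as FPKM and 2.04 as TPM.

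**Figure D3:**
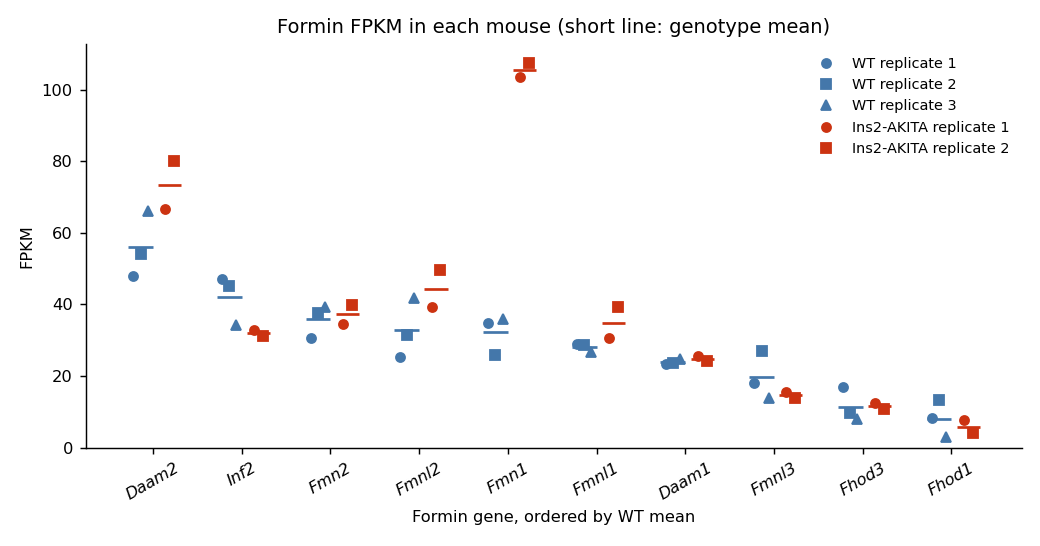
FPKM of the 10 formins in each of the 5 mice (linear y axis), WT in blue and Ins2-AKITA in red, with a short line at each genotype mean and the genes ordered by WT mean. *Fmn1* shows the widest gap between the genotypes, with WT mice between 25.9 and 36.0 FPKM and Ins2-AKITA mice at 103 and 107.

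**Figure D4:**
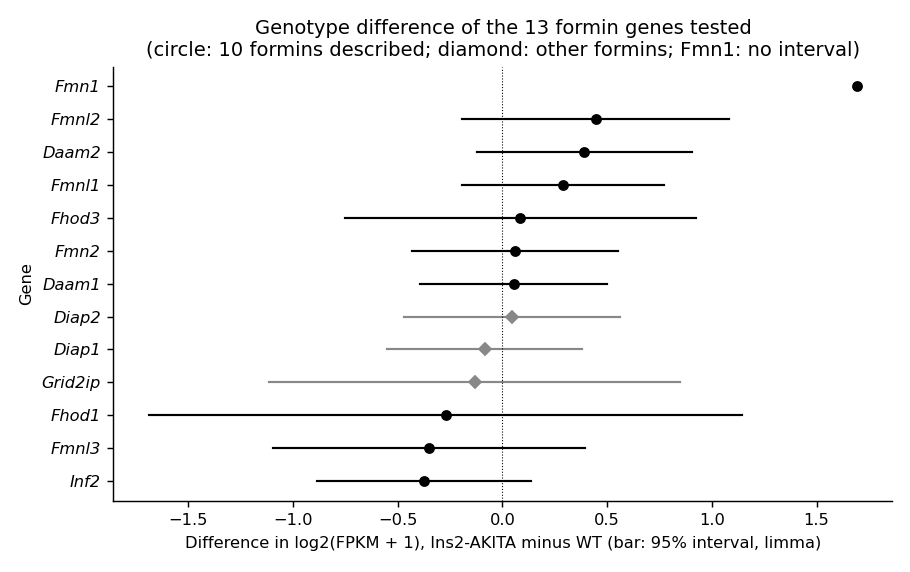
Log2 difference, Ins2-AKITA minus WT, of the 10 formins and the other formins tested, with 95% limma intervals for all except *Fmn1*, which is drawn as a point because it was chosen for this difference. Every interval drawn includes 0.

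FPKM is divided by transcript length, so levels can be compared between genes, though less surely for *Fmn1*, whose value may include a very short transcript. In WT the order of mean FPKM was *Daam2* (56.0), *Inf2* (42.1), *Fmn2* (35.8), *Fmnl2* (32.8), *Fmn1* (32.2), *Fmnl1* (28.1), *Daam1* (23.9), *Fmnl3* (19.7), *Fhod3* (11.5) and *Fhod1* (8.18). Among neighbours in this order, the mice did not overlap between *Daam2* and *Inf2* or between *Fmnl1* and *Daam1*, and overlapped in the other pairs. In Ins2-AKITA *Fmn1* came first at 105 FPKM and *Daam2* second at 73.4, without overlap. The genes behind them ran *Fmnl2*, *Fmn2*, *Fmnl1*, *Inf2*, *Daam1*, *Fmnl3*, *Fhod3* and *Fhod1*. Among these 10 formins, *Fmn1* was thus the fifth in WT and the first in Ins2-AKITA.

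The other formins were the diaphanous genes, which build stress fibres and cortical filaments, and *Grid2ip*, a synaptic protein of Purkinje cells. *Diap1* was at 39.8, 37.1 and 46.3 FPKM in WT, against 36.2 and 41.0 in Ins2-AKITA (-0.08, adjusted p = 0.957, and relative to the median -0.050 as FPKM and 0.37 as TPM). *Diap2* (0.05, adjusted p = 0.978) and *Grid2ip* (-0.13, adjusted p = 0.967) likewise overlapped between the genotypes, and *Diap3* stayed under 1 FPKM and was not tested.

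Genes that regulate or share the work of formins were taken from 6 lists, in which 0 genes passed the threshold and the smallest adjusted p was 0.896 in each. The Arp2/3 complex, which builds branched filaments, had 6 positive of 9 and a median of 0.16, from *Arpc5l* at -0.46 to *Actr3* at 0.35. Its activators had 2 positive of 7 and a median of -0.27, from *Wasl* at -0.69 to *Cttn* at 0.26.

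Other nucleators had 2 positive of 5, from *Lmod1*, a smooth muscle leiomodin, at -0.69 to *Spire1*, a partner of *Fmn2*, at 0.31. *Spire1* was at 60.3, 50.9 and 59.1 FPKM in WT, against 65.9 and 75.4 in Ins2-AKITA. Actin, profilin and the severing or capping proteins had 9 positive of 15 and a median of 0.05. *Pfn2*, the brain profilin, was highest at 0.59 and *Tmsb10*, which sequesters actin, lowest at -0.33.

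The list of serum response factor, its coactivators and muscle actin targets had 3 positive of 10 and a median of -0.26. The positive genes were all among the factor and its coactivators, and every listed target was negative. In this list, 4 genes were lower in both Ins2-AKITA mice than in every WT mouse, against 10.3% of all symbols. The 4 were *Acta2*, *Tagln*, *Myh11* and *Cnn1*, which also make up the smooth muscle marker list. *Cnn1*, smooth muscle calponin, was lowest at -0.98 and *Myocd*, a coactivator of serum response factor, highest at 0.90. Adherens junction genes, the partners of *Fmn1* among them, had 6 positive of 7 and a median of 0.17. *Ctnna2*, neural alpha-catenin, was highest at 0.35 and *Cdh5*, the endothelial cadherin, lowest at -0.58, with 32.3, 44.5 and 30.9 FPKM in WT, against 25.0 and 21.9 in Ins2-AKITA. Relative to the median of all symbols as TPM, *Arpc5l*, *Wasl*, *Lmod1*, *Cnn1* and *Cdh5* stayed negative, and *Tmsb10* turned from -0.29 to 0.19.

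Marker sums of some other cell types were also unequal between the genotypes on the FPKM scale. The 6 astrocyte markers summed to 1494, 1958 and 2198 FPKM in WT, against 2609 and 2990 in Ins2-AKITA, a 1.49-fold ratio. All 6 had positive differences and 3 lay above every WT mouse, against 9.24% of all symbols, with a smallest adjusted p of 0.804. *Aldh1l1*, an astrocyte folate enzyme, was at 37.9, 28.5 and 41.6 in WT, against 75.3 and 72.1 in Ins2-AKITA. As a percent of the summed astrocyte markers, *Fmn1* was at 2.33%, 1.32% and 1.64% in WT, against 3.96% and 3.59% in Ins2-AKITA. On the same basis *Daam2* was at 3.20%, 2.76% and 3.00% in WT, against 2.56% and 2.68% in Ins2-AKITA, and *Fmnl1* and *Fmnl2* overlapped between the genotypes. *Slc1a2*, a gene of the astrocyte list, alone gave 1013, 1449 and 1507 FPKM of these sums in WT, against 1897 and 2110 in Ins2-AKITA. The percents therefore follow mainly 1 gene and do not correct for astrocyte share. They also reuse the *Fmn1* values that chose the set.

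All 4 smooth muscle markers, the same genes as those counted in the serum response factor list, were lower in both Ins2-AKITA mice than in every WT mouse (10.3% of all symbols), and they summed to 212, 249 and 227 FPKM in WT, against 166 and 129 in Ins2-AKITA. The 7 endothelial markers, of which 6 had negative differences, summed to 344, 533 and 325 in WT, against 327 and 272 in Ins2-AKITA. The part of these or any other cell types in the formin values was not tested. Ratios of the remaining summed lists, Ins2-AKITA over WT, were 0.869 for pericyte, 1.08 for microglia, 1.01 for oligodendrocyte, 1.04 for neuron, 1.03 for cerebellum, 1.14 for fibroblast, 0.928 for choroid plexus and ependyma, 0.529 for blood and 0.607 for other leukocyte markers, with *Ly6g*, a neutrophil marker, listed at 0 in every mouse. Oligodendrocyte markers summed to 1926, 2006 and 2613 FPKM in WT, against 2096 and 2302 in Ins2-AKITA. Neuron markers summed to 793, 703 and 713 in WT, against 698 and 833 in Ins2-AKITA. Choroid plexus and ependyma markers summed to 1808, 2038 and 686 in WT, against 1826 and 978 in Ins2-AKITA. Blood markers summed to 60.1, 67.7 and 35.1 in WT, against 32.4 and 25.1 in Ins2-AKITA (limma, smallest adjusted p = 0.896). Other leukocyte markers summed to 2.66, 2.83 and 2.79 in WT, against 1.76 and 1.60 in Ins2-AKITA. Those values are low, and only *Ptprc* among them was tested. The lists hold different genes, so their sums do not give cell shares.

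**Figure D5:**
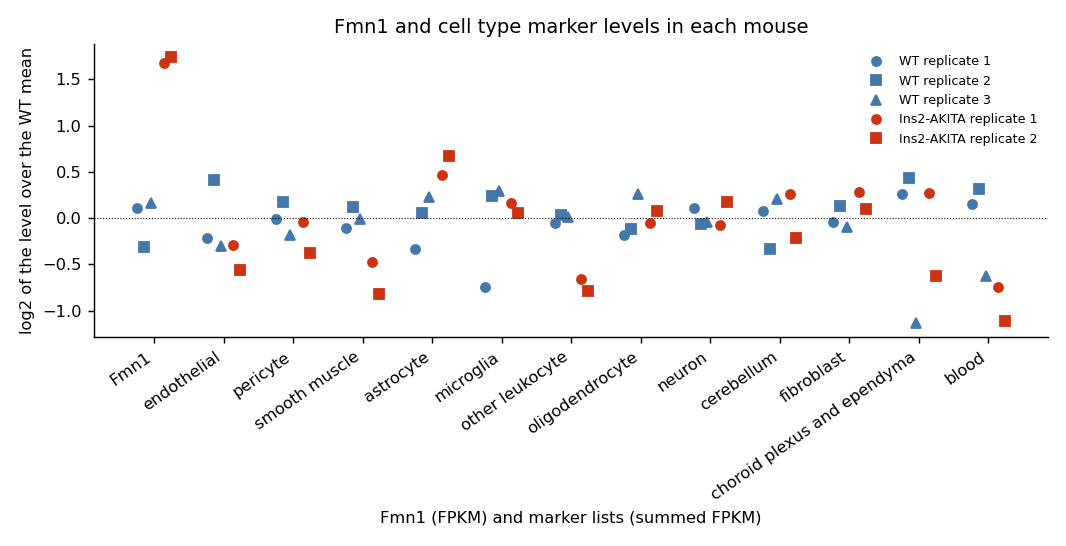
Level of *Fmn1* and of each summed cell type marker list in the 5 mice, as log2 of its ratio to the WT mean (y axis, 0 is the WT mean). The astrocyte sums behind the points lie between 1494 and 2198 in WT, against 2609 and 2990 in Ins2-AKITA, and smooth muscle sums between 212 and 249 in WT, against 166 and 129 in Ins2-AKITA.

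The 5 symbols whose profile over the 5 mice was most like that of *Fmn1* were found by the root mean square difference of centred log2(FPKM + 1). Of them, *Shisa6* (0.22) encodes a partner of AMPA receptors and *Emx2* (0.24) a homeobox factor of the forebrain. *Shisa6* was at 23.7, 26.6 and 34.6 FPKM in WT, against 76.0 and 97.9 in Ins2-AKITA, and *Emx2* at 31.3, 25.3 and 34.6 in WT, against 65.2 and 81.7 in Ins2-AKITA. They were selected for this likeness over the same 5 mice, so their genotype pattern is a description of that choice. *Gm14648*, *1700019G24Rik* and *Gm3164* were listed at 0 in all WT mice and between 2.48 and 3.52 FPKM in Ins2-AKITA.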

How the data were processed

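Libraries came from 5 mice, 3 WT and 2 Ins2-AKITA. RNA of PECAM1-selected microvascular fragments was depleted of ribosomal RNA and made into stranded total RNA libraries. Per the labels, the authors used NCBIM37, TopHat2 2.0.4, Picard 1.92 (duplicate removal) and Cufflinks 2.2.1. Each deposited table gives FPKM for the genes of 1 mouse, not counts. The annotation release and the program behind single-mouse values are not given in the sources used here.

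GENCODE vM1 matched 37197 of 37982 identifiers, and rows were summed by symbol. Symbols with a mean of at least 1 FPKM entered a limma fit (version 3.58.1, R 4.3.3, trend, genotype only, two-sided, Benjamini-Hochberg at 0.05) on log2(FPKM + 1), a scale that understates changes of low genes. The fit was also run on simulated data with independent normal noise. That simulation did not model differences in depth or composition between libraries, so nothing is read from it here. Other steps used Python 3.11.15. Fragments per library (1122000 to 2839000) were estimated from low FPKM values taken as whole fragments, of which 97.3% to 98.0% came out whole within 0.03. P-values set the genotype difference against a spread between mice that limma moderates over all genes. With 1 library per mouse, that spread also holds differences of fragment isolation and library preparation.

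A further gene list is not reported here. Members and gene lists were chosen with earlier results of these data known. Named were all members, the other formins, the highest and lowest gene of each list, the 3 nearest protein-coding genes on each side of *Fmn1* and the 5 most similar profiles. Alternatives changed the pseudocount, filter, scaling, prior, replicate block and summing, or left out a mouse.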

Additional observations from a re-analysis of the deposited data

How the results depend on the processing

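*Fmn1* kept a positive log2 difference under every alternative run, between 1.55 and 1.78 without any 1 mouse and 3.11 as TPM. *Fmn1* was chosen for this contrast, with both Ins2-AKITA mice far above WT. Its sign could therefore hardly change, and that it was kept adds no support. With both Ins2-AKITA mice kept, 0 of the other 9 formins and 0 genes of the lists passed the threshold under any alternative. The smallest limma adjusted p of the 9, 0.268 as TPM, was shared by *Fmn2*, *Fmnl1*, *Fmnl2*, *Daam1*, *Daam2* and *Fhod3*. Over all symbols the main count of 0 higher and 4 lower became 58 higher and 30 lower as TPM, 1 and 2 with a constant prior, 2 lower with no filter and 2 lower with a mean of at least 5 FPKM, and it ranged from 0 to 10 higher and from 1 to 6 lower without any 1 mouse. The cause was not tested. The formins with both Ins2-AKITA mice above and below WT numbered 3 and 1 (9.24% and 10.3% of all symbols), 2 and 1 with median-ratio scaling (9.27% and 10.03%), 4 and 0 as TPM (33.2% and 0.632%), 5 and 3 without WT replicate 3 (18.02% and 23.5%) and 5 and 2 without Ins2-AKITA replicate 1 (26.1% and 27.9%).

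TPM moved the median of all symbols to 1.07. Values that turned positive as TPM were *Fmnl3* 1.06, *Inf2* 1.19, *Fhod1* 0.83, *Diap1* 1.44, *Grid2ip* 1.01, *Arpc5l* 0.97, *Wasl* 0.84, *Lmod1* 0.41, *Tmsb10* 1.26 and *Cdh5* 0.96. Relative to the median, *Inf2*, *Diap1* and *Tmsb10* turned positive and the others stayed negative. Without any 1 mouse, the sign was not stable for *Fmn2* (-0.048 without WT replicate 1 to 0.16 without Ins2-AKITA replicate 1), *Fhod1* (-0.79 without WT replicate 3 to 0.14 without WT replicate 2), *Fhod3* (-0.12 without WT replicate 3 to 0.38 without WT replicate 1), *Diap1* (-0.17 to 0.0024), *Diap2* (-0.039 to 0.12), *Grid2ip* (-0.61 to 0.35) and *Cttn* (-0.11 to 0.62). Where an Ins2-AKITA mouse was left out, the lone one is assumed to vary like the others.

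With the replicate number as a block, in which WT replicate 3 has no partner, *Fmn1* was 1.78, *Fhod3* -0.12 and *Diap1* 0.0024, with 0 symbols higher and 5 lower. The labels tie the numbers to no litter, so the numbers were not taken as pairs. Deviations of same-numbered mice correlated over genes at 0.051 and -0.034. With 2 Ins2-AKITA mice, their deviations mirror each other, so these correlations cannot decide whether mice were paired. The protein-coding sum as a scale was chosen after seeing the data. *Fhod1* rested on about 19.7 to 64.0 fragments per mouse, if all came from its longest coding transcript.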
